A study of Mus musculus with 15 samples.

Results

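The mouse Cyp2b family occupies a stretch of chromosome 7 that holds the genes Cyp2b10, Cyp2b13, Cyp2b9, Cyp2b23 and Cyp2b19. All 5 were taken by symbol from the 55228 genes listed in the expression tables. Cyp2b23 had been picked beforehand from its own values, as a gene with a large rise after 240 h of Smarcb1 knockdown, so its levels are a description here and carry no test. The other 4 members were added by family and position, and the question was whether Cyp2b23 moved alone in its cluster.

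RNA was sequenced from 81K1 cells, mouse embryonic stem cells that were made from the OG2 line. They descend from 1 targeted clone, K1, whose Rosa26 locus carries a doxycycline-inducible cassette for a short hairpin RNA. The hairpin lowers Smarcb1, which encodes a subunit of BAF, a complex that remodels chromatin. Knockdown cells (kd) received 1 µg doxycycline per ml medium daily and were sampled at 48 h, 72 h and 240 h, and untreated cells (ctrl) of the same line, which carry the cassette too, were sampled at 48 h and 240 h. Each of the 5 groups had 3 libraries. No untreated cells of 72 h were among the samples, so the 48 h ctrl libraries served for both earlier comparisons, which are therefore not independent. Doxycycline-treated cells without the hairpin were not analysed here, so doxycycline and knockdown cannot be told apart. The labels name no batch and do not say that the replicates of a group were separate cultures. P-values therefore measure the spread between these libraries only.

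Cyp2b enzymes are microsomal cytochromes P450 that oxidise drugs, steroids and fatty acids. They are best known from liver, where the nuclear receptor CAR (Nr1i3), together with its relative PXR (Nr1i2), induces Cyp2b10 after phenobarbital. Cyp2b9 and Cyp2b13 are predominantly expressed in female liver, and Cyp2b19 is an arachidonate epoxygenase of keratinocytes. Microsomal P450 enzymes bind haem, and most of them take electrons from the reductase Por.

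On mm10 the members lie within 0.875 Mb of chromosome 7. Cyp2b10 (ENSMUSG00000030483.14, chr7:25897620-25926624), Cyp2b13 (ENSMUSG00000040583.8, chr7:26061497-26096197), Cyp2b9 (ENSMUSG00000040660.6, chr7:26173411-26210661) and Cyp2b19 (ENSMUSG00000066704.6, chr7:26757142-26772630) are on the forward strand. Cyp2b23 (ENSMUSG00000040650.8, chr7:26665227-26686437) is on the reverse strand, has 9 exons and overlaps no other listed gene. The start site of Cyp2b19 is 70.7 kb from that of Cyp2b23, the nearest of the members, whereas the start sites of Cyp2b9, Cyp2b13 and Cyp2b10 are farther away on the other side. The gene span is 9.69 times the exonic length for Cyp2b23, 13.7 times for Cyp2b10, 18.5 for Cyp2b13, 19.9 for Cyp2b9 and 3.72 for Cyp2b19, so levels per base of span, as used here, are not levels per base of mRNA.

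The sequences before the start sites are shown because the members resemble each other there and differ in expression. The following is the 250 bases before the RefSeq start site of Cyp2b23 (GRCm38.p6, chr7:26686431-26686680, reverse strand), 5′ to 3′, in which capitals mark, in order, the nuclear receptor half-site AGGTCA, the 9-base word TTGCATAAC and the TATA-like word CATAAAA.
Cyp2b23: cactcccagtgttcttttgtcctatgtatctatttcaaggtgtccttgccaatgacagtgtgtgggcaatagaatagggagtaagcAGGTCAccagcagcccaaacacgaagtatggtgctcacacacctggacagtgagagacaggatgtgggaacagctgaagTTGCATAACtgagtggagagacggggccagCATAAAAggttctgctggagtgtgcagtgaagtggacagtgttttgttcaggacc

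An alignment of all 5 promoters (250 bases before to 50 after the start) placed the following 46-base stretches opposite each other, with the same words in capitals where they occur. They are at chr7:25897591-25897636 for Cyp2b10, chr7:26061427-26061472 for Cyp2b13, chr7:26173341-26173386 for Cyp2b9, chr7:26686479-26686524 (reverse strand) for Cyp2b23 and chr7:26757093-26757138 for Cyp2b19.
Cyp2b10: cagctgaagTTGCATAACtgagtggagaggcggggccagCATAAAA
Cyp2b23: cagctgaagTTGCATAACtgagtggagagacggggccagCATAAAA
Cyp2b19: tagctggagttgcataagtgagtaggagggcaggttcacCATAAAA
Cyp2b13: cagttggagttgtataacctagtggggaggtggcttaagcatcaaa
Cyp2b9: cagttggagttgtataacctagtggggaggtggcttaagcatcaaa

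In this stretch Cyp2b10 shared 45 of 46 bases with Cyp2b23, Cyp2b19 shared 34, and Cyp2b13 and Cyp2b9 shared 33 each. Over the aligned promoter bases, Cyp2b23 was 79.7% identical to Cyp2b10, 79.2% to Cyp2b19 and 76.3% to both Cyp2b13 and Cyp2b9, and the promoters of Cyp2b13 and Cyp2b9 were 99.3% identical to each other. The words were chosen on reading these promoters and were searched on both strands, where CATAAAA does not overlap the others. CATAAAA occurs in Cyp2b10, Cyp2b23 and Cyp2b19 and in 4.19% of the 32851 RefSeq promoters of the same length. TTGCATAAC occurs in Cyp2b10 and Cyp2b23 and in 0.158% of promoters. AGGTCA occurs in all members but Cyp2b10 and in 16.3% of promoters. A match describes the letters and not a site in use.

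The transcripts are similar too, which bears on how well reads can be assigned. The GENCODE transcript of Cyp2b23 was 86.6% identical to that of Cyp2b10, 84.8% to Cyp2b9, 84.3% to Cyp2b13 and 77.3% to Cyp2b19. At the read length of 75 bases, 1.80% of the windows of the Cyp2b23 transcript occur without mismatch in a transcript of another gene, against 3.15% for Cyp2b10, 5.16% for Cyp2b9, 1.13% for Cyp2b19 and 16.4% for Cyp2b13. The other genes concerned were members of the family and Gm45225, a pseudogene within the cluster. Values of Cyp2b13 are the least certain of the 5 in this respect.

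Libraries held between 11074998 and 14515300 reads. FPKM values were computed by the authors over the whole gene span, introns included, and the reads behind them were recovered as whole numbers. Smarcb1, the targeted gene, was at 3.60 ± 0.290 FPKM at 48 h and 3.42 ± 0.124 at 240 h in untreated cells, against 0.647 ± 0.161, 0.564 ± 0.0662 and 0.660 ± 0.0531 in the kd libraries at 48 h, 72 h and 240 h (SD, n = 3), so every kd group was low as labelled. The share of reads from mitochondrial genes ranged from 0.469% to 2.35%, with the highest share in 48 h kd replicate 2.

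Cyp2b23 was expressed at a low level in all control libraries and was high only in the knockdown cells of the later time points. Untreated cells gave 41, 34 and 47 reads at 48 h and 50, 37 and 35 at 240 h. The libraries of 48 h of knockdown had 37, 57 and 52 reads. These 3 groups overlap.

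After 72 h of knockdown the reads were 155, 125 and 118, and after 240 h they were 635, 728 and 714. Each of the 6 late knockdown libraries lay above every control library, and the 240 h kd libraries lay above every 72 h kd library. The groups compared at 48 h overlapped, whereas those at 72 h and 240 h did not. Over all genes tested, groups did not overlap for 41.6% of genes at 48 h, 65.2% at 72 h and 53.1% at 240 h, and the values of Cyp2b23 in these comparisons are those that it was chosen for.

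On the FPKM scale Cyp2b23 measured 0.160 ± 0.0306 at 48 h and 0.153 ± 0.0319 at 240 h without doxycycline, and 0.201 ± 0.0428, 0.489 ± 0.0767 and 2.37 ± 0.1005 after 48 h, 72 h and 240 h of knockdown (SD, n = 3). The ratio of the means of kd to ctrl was thus 1.25 ± 0.207 at 48 h, 3.05 ± 0.435 at 72 h and 15.4 ± 1.90 at 240 h (SE). Between the control groups the ratio was 0.956 ± 0.156, and with the 240 h ctrl group as the reference, the 72 h ratio was 3.19 ± 0.480. The rise was therefore not confined to 240 h. From 72 h to 240 h of knockdown the level rose a further 4.84-fold (SE 0.454).

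As differences of mean log2(FPKM + 0.1), the scale used for the tests of other genes, these were 0.20 at 48 h, 1.18 at 72 h and 3.29 at 240 h, with 3.09 between the differences at 240 h and 48 h and −0.04 between the control groups. This scale understates the change of a gene near the added 0.1 FPKM: on the log2 scale of recovered reads per library (limma voom), the difference was 1.60 at 72 h and 3.94 at 240 h. Ranked by FPKM among protein-coding genes averaging 10 reads or more, Cyp2b23 stood at percentile 18.3 and 18.2 in the control groups of 48 h and 240 h, and at 20.3, 32.5 and 67.0 after 48 h, 72 h and 240 h of knockdown. It thus moved from among the weakly expressed genes into the upper part of the range. In bulk RNA, more expressing cells and more RNA per cell cannot be told apart.

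**Figure D1:**
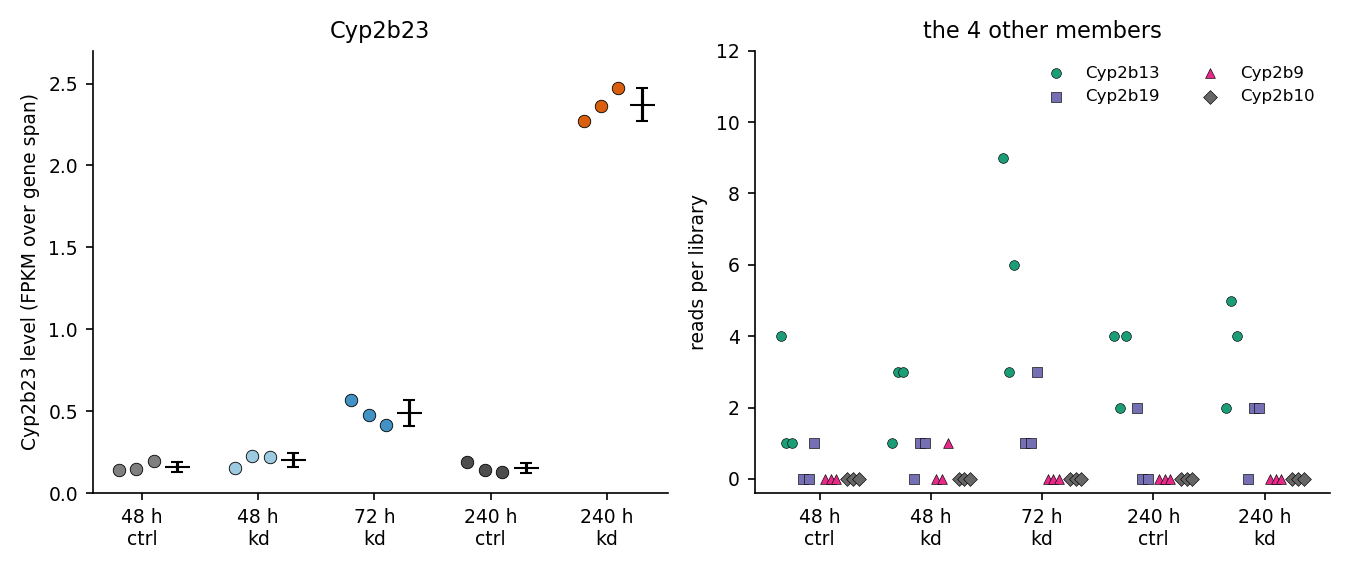
Levels of the Cyp2b members in the 15 libraries. Left, Cyp2b23 in FPKM over the gene span by group, with 1 point per library and the mean ± SD (n = 3) beside them, where the 240 h kd libraries (2.27 to 2.47 FPKM) lie above all others. Right, reads per library of the 4 other members, none of which exceeded 9 reads in a library.

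The 4 other members were at or near 0 in all groups. Over the 15 libraries Cyp2b23 had 2865 reads and the other 4 together had 67, so that Cyp2b23 accounted for 97.7% of the reads of the family. Of the 2865 reads, 2077 came from the 240 h kd group, for whose values the gene was chosen. In the untreated groups of 48 h and 240 h Cyp2b23 had 122 reads each, beside 6 and 10 for Cyp2b13 and 1 and 2 for Cyp2b19. None of the 4 other members reached the minimum mean of 10 reads for a test in any comparison, and none is therefore among the genes called. A called gene has an adjusted p under 0.05 (limma, Benjamini-Hochberg) and an absolute log2 difference above 0.58. By this rule 4.47% of all tested genes were called at 48 h, 13.7% at 72 h and 9.96% at 240 h, 6.85% for the difference between the effects at 240 h and 48 h, and 0.413% between the control groups. This last share rests on 67 genes, of which 0 remained called when any 1 of the 6 control libraries was left out.

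Cyp2b10, the phenobarbital-inducible member of liver, had 0 reads in all 15 libraries. Counting error alone allows up to 0.000551 FPKM for the libraries together (3 reads). In the 240 h kd libraries Cyp2b23 was at least 947-fold higher than Cyp2b10, at 3 reads over the group. The member whose proximal promoter stretch is closest to that of Cyp2b23 was thus not detectable at this depth.

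Cyp2b9 had 1 read in all, in 48 h kd replicate 3, and 0 in the other 14 libraries. At 240 h kd its bound relative to Cyp2b23 was at least 1216-fold by the same floor.

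Cyp2b13 was the only other member with a read in every library. Untreated libraries had 4, 1 and 1 reads at 48 h and 4, 2 and 4 at 240 h. Knockdown libraries had 1, 3 and 3 reads at 48 h, 9, 3 and 6 at 72 h, and 2, 5 and 4 at 240 h. The ranges of all 5 groups overlap. The 240 h kd group, where Cyp2b23 was highest, did not stand apart from its control, with 11 reads against 10 over 3 libraries each. The ratio of Cyp2b23 to Cyp2b13 in FPKM was 33.3 (95% counting interval 14.9 to 92.4) and 20.0 (10.5 to 42.7) in untreated cells of 48 h and 240 h. After 48 h, 72 h and 240 h of knockdown it was 34.1 (16.2 to 86.4), 36.2 (22.6 to 61.7) and 309 (172 to 620). These intervals cover counting error only, and the span of Cyp2b13 contains the listed pseudogene Rnf170-ps.

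Cyp2b19, the keratinocyte epoxygenase next to Cyp2b23, had 14 reads in 9 of the 15 libraries and at most 3 in a library. Untreated libraries had 0, 0 and 1 reads at 48 h and 2, 0 and 0 at 240 h, and knockdown libraries 0, 1 and 1 at 48 h, 1, 1 and 3 at 72 h, and 0, 2 and 2 at 240 h. With 4 reads in 240 h kd cells, Cyp2b23 was 379 times higher (95% counting interval 148 to 1393).

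Without the minimum of 10 reads, Cyp2b13 and Cyp2b19 could be tested in each comparison, and Cyp2b9 in those with the 48 h kd libraries. Under limma on log2(FPKM + 0.1), 0 of them were called in any comparison and 0 had an unadjusted p under 0.05. Under limma voom on the recovered reads, 0 were called and 1 had an unadjusted p under 0.05, namely Cyp2b13 at 72 h. Its log2 difference was 1.36 ± 0.60 (SE), with an unadjusted p of 0.0283 and an adjusted p of 0.0799. For Cyp2b19 at 72 h it was 1.36 ± 0.69, with an adjusted p of 0.140. At 240 h the difference was −0.05 ± 0.54 for Cyp2b13 (adjusted p = 0.944) and 0.62 ± 0.78 for Cyp2b19 (adjusted p = 0.648). With standard errors of 0.54 to 0.78 on the log2 scale, changes of a few-fold in these members could be missed at this depth.

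The genes around Cyp2b23 had few reads. To the left, the nearest gene averaging 10 reads or more was Cyp2s1, 848 kb away, and to the right it was Cyp2t4, 467 kb away. Gm26707, which overlaps the start of Cyp2s1 and extends towards Cyp2b23, had 2 to 16 reads in a library. Apart from it, 41 further listed genes lie between Cyp2s1 and Cyp2t4, of which 26 had no read in any library and none had more than 10 reads in a library. Among them Cyp2f2, a P450 gene known from airway club cells, had 0, 0 and 0 reads in untreated cells of 48 h against 1, 3 and 2 after 48 h and 3, 8 and 1 after 72 h of knockdown, and 1, 1 and 0 without against 2, 2 and 3 with knockdown at 240 h. The groups did not overlap in these 3 comparisons, as was so for 41.6%, 65.2% and 53.1% of all genes tested. Cyp2f2 itself had too few reads for the test. Its span contains the antisense gene Gm15883, which had up to 6 reads in a library, so reads of both may be mixed.

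**Figure D2:**
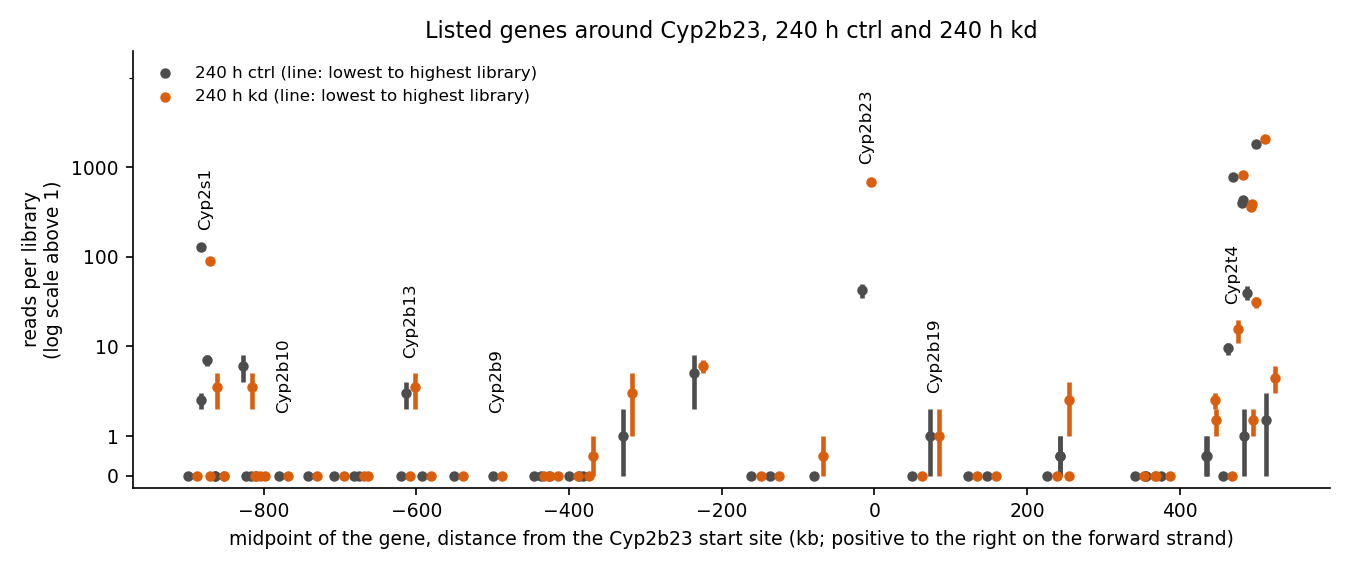
Reads per library of every listed gene around Cyp2b23 in 240 h ctrl (grey) and 240 h kd (orange) cells, against the distance of the gene's midpoint from the Cyp2b23 start site in kb. Lines run from the lowest to the highest of 3 libraries, points mark the middle of that range, the groups are drawn side by side at each gene, and the vertical axis is logarithmic above 1 read. Between Cyp2s1 and Cyp2t4, Cyp2b23 is the single gene above 10 reads, at 635 to 728 reads in 240 h kd libraries.

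The cluster also holds the pseudogenes Cyp2b27-ps and Cyp2b26-ps, both at 0 in all libraries, and genes of other Cyp2 families, among them the Cyp2a genes, Cyp2f2 and Cyp2g1. Of 9 genes and pseudogenes of the other families, 2 were at 0 in all libraries (Cyp2a12 and Cyp2g1) and 2, Cyp2s1 and Cyp2t4, had enough reads for the test. Neither was called in any comparison. Cyp2s1 measured 0.705 ± 0.0379 FPKM in untreated and 0.457 ± 0.0464 in knockdown cells of 240 h (SD, n = 3), a log2 difference of −0.53 ± 0.08 (SE) with an adjusted p of 0.00360 in limma that stayed within the 0.58 threshold. Cyp2t4 differed by 0.26 ± 0.18 at 240 h (adjusted p = 0.290, limma).

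Gene lists give the surroundings of these values. Of the 48 calls of listed genes over all comparisons, 32 fell under the 0.58 threshold with a pseudocount of 1 FPKM, which shrinks the differences of genes at a low level, and none changed direction under any alternative. Among the 78 listed genes within 500 kb of the cluster, 28 were tested at 48 h and 27 at 72 h and 240 h. At 48 h 2 were higher and 1 was lower, at 72 h 4 were higher and 0 lower, and at 240 h 1 was higher and 0 lower. Their median log2 difference was 0.04, 0.20 and 0.03 at the 3 times, beside 0.01 for all genes tested at each. The gene higher at all 3 times was Ceacam1, a cell adhesion molecule more than 1 Mb from Cyp2b23. Its reads at 240 h were 243, 266 and 220 without and 602, 673 and 701 with knockdown, and these groups do not overlap. Its log2 difference was 1.94 at 48 h (adjusted p = 0.000379, limma), 1.70 at 72 h (adjusted p = 1.98e-05) and 1.24 at 240 h (adjusted p = 0.000194). Unlike Cyp2b23 it was thus highest at the first time point, and its effect at 240 h was smaller than at 48 h by 0.70 on the log2 scale (adjusted p = 0.00774, limma). 4732471J01Rik, which was higher at 48 h (0.94) and 72 h (0.76), spans Ceacam1 and shares its reads.

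The other neighbours called were Tgfb1, a growth factor gene (−0.77 at 48 h), B9d2, a ciliary transition zone gene (1.00 at 72 h), and Mia (0.84 at 72 h), whose span is shared with the more highly read Gm21983.

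The receptors that induce Cyp2b genes in liver were not among the genes called. Nr1i3, which encodes CAR, had, at 240 h, 221, 278 and 272 reads without and 285, 312 and 283 with knockdown, a log2 difference of 0.06 ± 0.09 (SE, adjusted p = 0.636, limma). At 48 h it was −0.15 ± 0.10 (adjusted p = 0.353) and at 72 h −0.04 ± 0.07 (adjusted p = 0.663). Its span overlaps Tomm40l, so reads of both genes may be mixed. Nr1i2, which encodes PXR, had at most 3 reads in a library and could not be tested.

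Of the 12 receptors and partner factors listed, 8 were tested at 48 h and 72 h and 9 at 240 h. In the 3 comparisons 1, 2 and 1 of them were lower and 0 were higher. The gene called at each time was Cebpa, a transcription factor of hepatocytes, adipocytes and myeloid cells. Untreated libraries had 66, 63 and 65 reads at 48 h and 62, 51 and 63 at 240 h. Knockdown libraries had 34, 26 and 19 reads at 48 h, 23, 38 and 19 at 72 h, and 38, 39 and 47 at 240 h. The kd libraries lay below the controls at each time. The log2 difference was −1.17 at 48 h (adjusted p = 0.00749, limma), −1.32 at 72 h (adjusted p = 0.00452) and −0.60 at 240 h (adjusted p = 0.00744). At 240 h it fell within 0.58 when 240 h ctrl replicate 1 or 3 or 240 h kd replicate 1 or 2 was left out, with values of −0.53 to −0.57. Rxrg, a retinoid X receptor, was lower at 72 h (−0.92, adjusted p = 2.04e-05, limma), with 5, 0 and 3 reads against 55, 46 and 45, and passed the minimum of 10 reads there only through the control libraries.

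Other genes known as CAR or PXR targets were examined in the same way. Of 17, 12 had a mean under 10 reads and 2, Cyp3a11 and Cyp3a25, had no read in any library. At 48 h 0 of 4 tested genes were called, at 72 h 2 of 4 were higher and at 240 h 1 of 5 was higher, while 0 were lower. The median log2 difference was 0.25, 0.58 and 0.41 at the 3 times, beside 0.01 for all genes at each. Abcc4, an efflux transporter, was higher at 72 h (0.95, adjusted p = 3.13e-05, limma), with 3417, 3239 and 3509 reads against 1743, 1405 and 1402 in 48 h ctrl. Abcb1a, another efflux transporter, was higher at 240 h (0.85, adjusted p = 0.000193, limma), with 267, 292 and 233 reads against 74, 87 and 90. At 72 h the difference of Abcb1a was 0.60 (adjusted p = 0.000335, limma), and it dropped to 0.55 without 48 h ctrl replicate 3, to 0.56 without 72 h kd replicate 3, to 0.54 with median centring, and to 0.38 against the 240 h ctrl libraries, so that the call was lost.

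Cyp2b enzymes need electrons and haem. Por, the reductase that supplies microsomal P450 enzymes, had, at 240 h, 851, 879 and 915 reads without and 843, 937 and 895 with knockdown, a log2 difference of −0.11 ± 0.05 (SE, adjusted p = 0.133, limma). At 72 h it was 0.19 ± 0.05, with an adjusted p of 0.0159 that stayed within the 0.58 threshold. Of the 6 genes of electron supply, all were tested, 0 were called at 48 h and 240 h, and 1 was lower at 72 h. This was Cyb5a, which encodes cytochrome b5 (−0.62, adjusted p = 6.88e-05, limma), and its difference was −0.47 against the 240 h ctrl libraries. Of the 9 genes of haem synthesis, all were tested and 0 were called at 48 h and 240 h.

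Across the genome 129 other P450 genes were listed, of which 107 had a mean under 10 reads and 33 had none at all. Of those tested, 0 of 20 were called at 48 h. At 72 h 3 of 21 were higher and 1 was lower, and at 240 h 2 of 24 were higher and 3 were lower. Cyp2d22 and Cyp2d67-ps at 72 h and Cyp26a1 and Cyp24a1 at 240 h passed the minimum of 10 reads only through their knockdown libraries, so that these counts describe the genes tested and give no measure of the family.

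The genes higher at 240 h were Cyp26a1 and Cyp24a1. Cyp26a1, which clears retinoic acid, had 35, 53 and 40 reads with and 2, 0 and 0 without knockdown. Its log2 difference was 3.03 ± 0.17 (SE, adjusted p = 8.19e-05, limma). Its knockdown libraries had 4, 1 and 2 reads at 48 h and 3, 5 and 4 at 72 h, against 3, 3 and 6 in untreated cells of 48 h, so that these earlier groups overlap. Cyp24a1, which inactivates the active form of vitamin D, had 46, 59 and 53 reads against 0, 1 and 0, a difference of 1.84 ± 0.05 (adjusted p = 1.65e-05, limma), and had no read in the 72 h kd libraries. Its span overlaps Pfdn4, which is read far more highly.

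Cyp27b1, which makes the active form of vitamin D, was lower at 72 h (−1.06, adjusted p = 0.00158, limma) and at 240 h (−1.12, adjusted p = 0.00322), with 10, 15 and 15 reads against 26, 32 and 43 in the untreated libraries of 240 h. The fatty acid hydroxylase genes Cyp4f16 (−0.76, adjusted p = 0.000884, limma) and Cyp4f13 (−0.64, adjusted p = 0.0168) were lower at 240 h. The call of Cyp4f13 was lost without 240 h ctrl replicate 1 (−0.56) or 2 (−0.56), or without 240 h kd replicate 2 or 3 (both −0.62), and with no minimum of reads (−0.64). At 72 h the rises were in Cyp27a1, a sterol 27-hydroxylase (0.86, adjusted p = 0.000244, limma), in Cyp2d22 (0.78, adjusted p = 0.00963) and in the pseudogene Cyp2d67-ps (2.58, adjusted p = 0.00266). Cyp2d22 had 32, 19 and 25 reads against 16, 6 and 6 in the control libraries, and Cyp2d67-ps had 16, 16 and 23 against 1, 0 and 4.

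**Figure D3:**
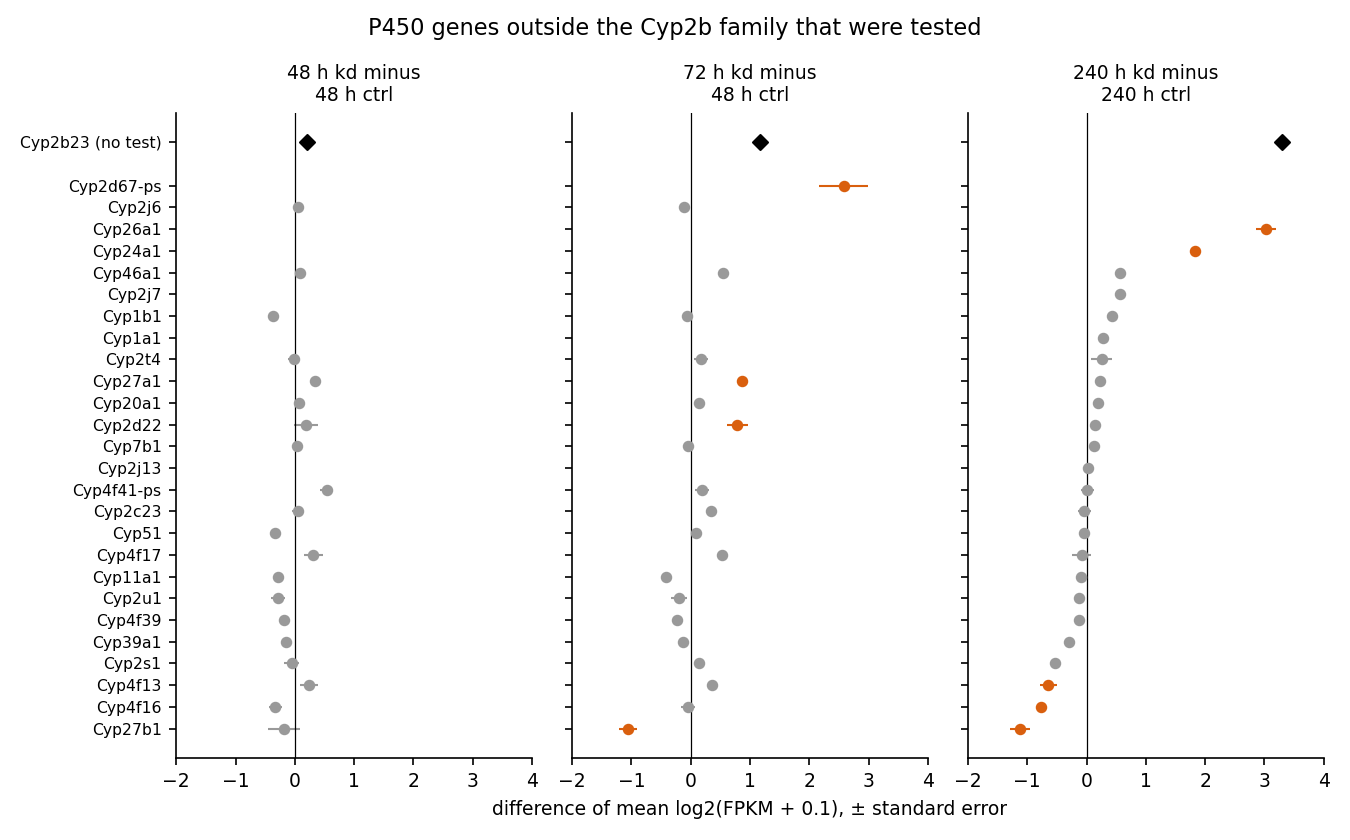
Differences of mean log2(FPKM + 0.1) with standard errors (from limma, 3 libraries per group) for each P450 gene outside the Cyp2b family that was tested, in the 3 knockdown comparisons. Orange marks genes called, and the black diamond gives Cyp2b23 (0.20, 1.18 and 3.29), which was chosen for its values and not tested.

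Markers of cell types that express Cyp2b enzymes were absent or low. All 7 hepatocyte markers had a mean under 10 reads, Serpina1a had none in any library, and their summed level per library was 0 to 0.0936 FPKM at 48 h and 0.0941 to 0.166 at 240 h without knockdown, and 0.0150 to 0.193, 0.00833 to 0.172 and 0.0517 to 0.267 after 48 h, 72 h and 240 h of it. The ranges at 240 h overlap. Of 6 keratinocyte markers, 1 was tested and 0 were called, and the summed level at 240 h was 0.994 to 1.46 FPKM without and 0.916 to 1.40 with knockdown, which overlap as well. It was 0.954 to 1.09 FPKM at 48 h without knockdown, 0.901 to 1.29 after 48 h and 0.714 to 0.996 after 72 h of it.

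The stem cell markers Pou5f1, Nanog, Sox2, Zfp42 and Esrrb were all expressed, with a summed level of 705 to 747 FPKM at 48 h and 674 to 704 at 240 h without knockdown, and of 634 to 710, 723 to 757 and 587 to 595 after 48 h, 72 h and 240 h of it. None of the 5 was called at 48 h or 72 h, and 2 were lower at 240 h, Esrrb (−0.78, adjusted p = 3.71e-05, limma) and Zfp42 (−0.58, adjusted p = 0.000146). The call of Zfp42 was lost without 240 h ctrl replicate 3 (−0.55) or 240 h kd replicate 2 (−0.56), and with quantile normalization (−0.55). Of 6 primitive endoderm markers 4 were tested, and 1, Sox7, was lower at each time (−1.24, −1.95 and −0.99 on the log2 scale). At 72 h Sox7 passed the minimum of 10 reads only through the control libraries, and at 240 h its call was lost with no minimum of reads (−0.99). The 3 others were not called at any time. At 240 h their reads, not corrected for depth, did not overlap between the groups. The kd libraries of 240 h were all deeper, with 13181394 to 14515300 reads against 12316539 to 12798813. By FPKM, the groups did not overlap for 53.1% of all genes tested at 240 h. Gata6 had 12 to 19 reads without and 35 to 42 with knockdown, a log2 difference of 0.41 (adjusted p = 0.00498, limma). Dab2 had 42 to 58 and 102 to 105 reads, a difference of 0.25 (adjusted p = 0.00217, limma), and Gata4 had 42 to 50 and 54 to 71 reads, a difference of 0.13 (adjusted p = 0.0529, limma). Both Gata6 and Dab2 stayed within the 0.58 threshold. The median of the 4 at 240 h was 0.19, beside 0.01 for all genes. Sox7 had the highest level of the list at 240 h, with a mean of 0.569 FPKM without and 0.248 with knockdown. Their summed level was 0.576 to 0.612 FPKM at 48 h and 0.761 to 0.832 at 240 h without knockdown, and 0.222 to 0.278, 0.15 to 0.226 and 0.564 to 0.671 after 48 h, 72 h and 240 h of it.

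Trophoblast markers moved in both directions. Of 6, 3 were tested at 48 h and 72 h and 4 at 240 h. At 48 h 0 were higher and 2 lower, at 72 h 1 was higher and 0 lower, and at 240 h 3 were higher and 1 lower. Cdx2, one of those higher at 240 h, had 28, 32 and 28 reads with and 4, 8 and 5 without knockdown, so that it passed the minimum of 10 reads only through the knockdown libraries, and it was not tested at 48 h and 72 h. Without it, 2 of 3 were higher at 240 h. The genes lower at 48 h were Tfap2c (−0.61, adjusted p = 0.00125, limma) and Eomes (−0.60, adjusted p = 0.00594), and the call of Eomes was lost without 48 h kd replicate 2 (−0.57) or 48 h ctrl replicate 1 (−0.54). Tfap2c was the gene higher at 72 h. The genes higher at 240 h were Cdx2 (1.35, adjusted p = 0.000301, limma), Krt8 (1.25, adjusted p = 5.69e-05) and Tfap2c (0.64, adjusted p = 0.000179), and Eomes was lower (−0.86, adjusted p = 0.00122). The summed level was 10.2 to 11.2 FPKM at 48 h and 9.02 to 9.83 at 240 h without knockdown, and 6.77 to 7.43, 18.2 to 18.8 and 15.4 to 15.8 after 48 h, 72 h and 240 h of it. Tfap2c made up most of this sum, with a mean of 16.6 FPKM after 72 h and 11.5 after 240 h of knockdown. Over the same 2 groups the mean of Krt8 was 1.29 and 3.42 FPKM, that of Cdx2 0.0319 and 0.329, and that of Gata3 0.00483 and 0.0163. The part of other cell types in the rise of Cyp2b23 was not tested.

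The genes whose levels followed Cyp2b23 most closely were sought among 13439 genes averaging 10 reads or more, by Pearson's r of log2(FPKM + 0.1) over the 15 libraries. The highest were Serpina3m, a serine protease inhibitor gene (r = 0.990), Greb1l (0.986), Bmerb1 (0.985), Nup62cl (0.983) and Dnajc21, a ribosome biogenesis factor (0.982). These libraries share their groups, and the values describe a common order of the 5 groups. For Serpina3m, untreated libraries had 166, 122 and 142 reads at 48 h and 164, 173 and 148 at 240 h, and knockdown libraries 158, 207 and 160 at 48 h, 304, 372 and 337 at 72 h, and 1094, 1093 and 1079 at 240 h. Like Cyp2b23 it was thus intermediate at 72 h and highest at 240 h. At 240 h Nup62cl measured 0.932 ± 0.0521 FPKM without and 4.12 ± 0.237 with knockdown, and Dnajc21, with a smaller difference, 8.71 ± 0.0740 and 12.6 ± 0.0322 (SD, n = 3).

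The lowest correlations were those of Schip1 (−0.984), Iqschfp (−0.983) and Krt17 (−0.981). Schip1 and Iqschfp overlap and share nearly all reads, so they count as 1 measurement. Krt17, a keratin gene, had 437, 391 and 418 reads at 48 h and 362, 357 and 396 at 240 h in untreated libraries. After knockdown it had 321, 253 and 285 at 48 h, 160, 136 and 154 at 72 h, and 49, 42 and 56 at 240 h. It was lowest where Cyp2b23 was highest.

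**Figure D4:**
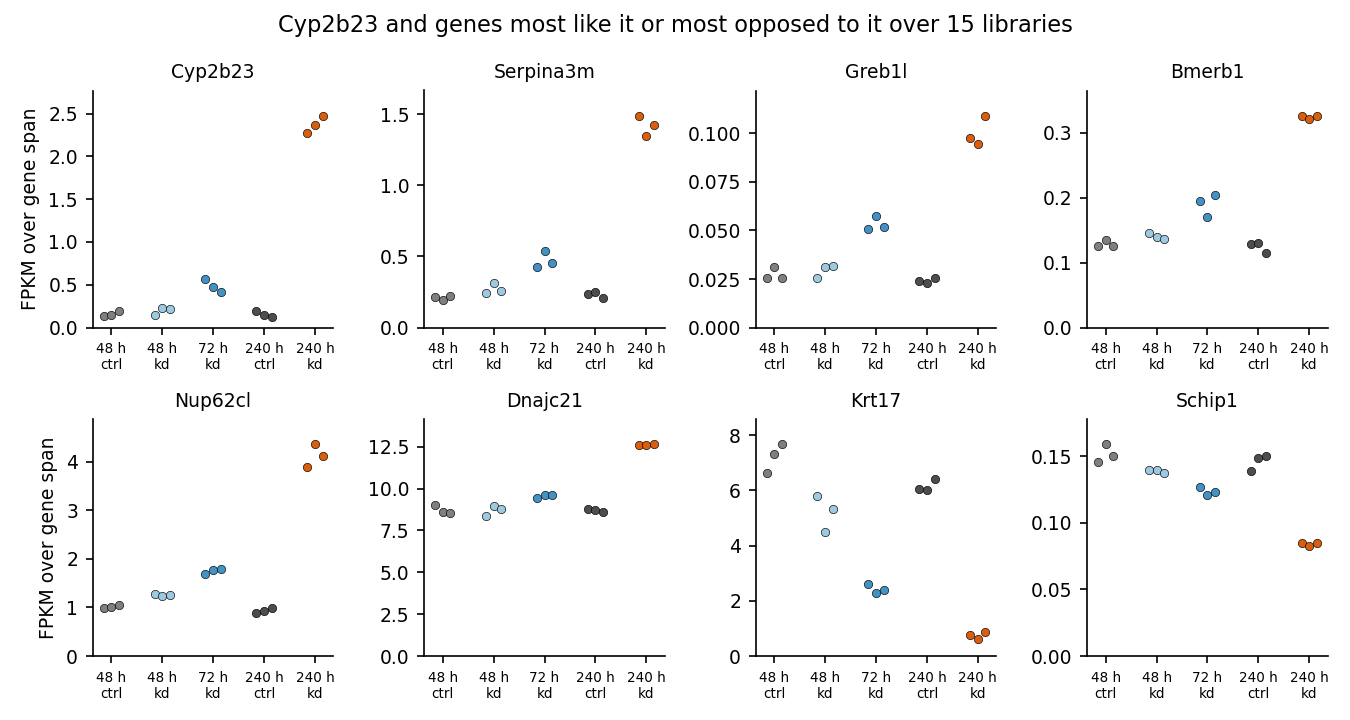
FPKM over the gene span in each of the 15 libraries, by group, for Cyp2b23, the 5 genes with the highest correlation to it and 2 of the 3 with the lowest (Iqschfp shares the reads of Schip1 and is left out). Each axis starts at 0; Serpina3m is intermediate in 72 h kd and highest in 240 h kd libraries, and Krt17 falls in the same order.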

How the data were processed

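Total RNA was sequenced as single reads in 15 libraries. The authors aligned reads to mm10 with STAR 2.7.0c, made count tables per gene with R packages and tested them with DESeq2 1.30.0. The deposited values are FPKM per gene, computed by the authors. Multiplied by the gene span and by 1 total per library, they gave whole reads for 100% of values above 0 (tolerance 0.001). Reads were counted over whole spans without strand, so overlapping genes share reads. The annotation release of the expression tables is not given in the sources used here, though the paper names a GENCODE release for its ChIP-seq peaks. Of the listed genes, 96.5% matched GENCODE M21.

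Members and lists were chosen with earlier results of these data known. Genes with a mean of at least 10 recovered reads were tested by limma 3.58.1 in R 4.3.3 (trend in the prior variance, two-sided) on log2(FPKM + 0.1), with Benjamini-Hochberg adjustment over all genes tested. Genes were called at the thresholds of the study, 0.05 and 0.58. The fits were also run on simulated counts, with the same spread set for all genes and changes planted only above the minimum of reads. That run does not cover genes with few reads or libraries that differ more than the spread set. limma voom with scaling by trimmed means on recovered reads was an alternative, and called 1502 genes at 48 h, 3629 at 72 h and 3003 at 240 h, against 720, 2215 and 1656. Other alternatives were pseudocounts, filters, scalings, a replicate block, single libraries left out and, added after the data were seen, voom without a filter and the 240 h ctrl libraries as control for 72 h. Named genes were set to be the members, Por, Nr1i3, Nr1i2, Smarcb1, up to 4 called genes per list and comparison, and the 5 highest and 3 lowest correlations with Cyp2b23. Beyond this rule, 5 called P450 genes were named at 240 h. Genes that were not called, among them Cyp2f2, Cyp2s1, Cyp2t4, Gata6, Dab2, Gata4 and Gata3, were named as well. Promoters are from RefSeq (GRCm38.p6), matched by symbol for 5 of 5 members, and were aligned with MAFFT. Counting intervals are exact binomial at 95%, and floors are 3 reads. A result on a gene of haem synthesis is not reported here.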

Additional observations from a re-analysis of the deposited data

Results flagged for a closer look

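Genes of the lists named above whose knockdown effect on log2(FPKM + 0.1) differed between 240 h and 48 h (interaction term over 12 libraries, limma, adjusted p under 0.05 and an absolute difference above 0.58) were looked at again. Cyp2b23 was not among the candidates, since it was chosen for its values, and the 4 other Cyp2b members had too few reads.

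Among P450 genes the difference of effects was 3.33 for Cyp26a1, 1.95 for Cyp24a1, 0.80 for Cyp1b1 and −0.88 for Cyp4f13. Cyp26a1 and Cyp24a1 passed the minimum of 10 reads only through the 240 h kd libraries. Cyp1b1, which oxidises oestrogens and polycyclic hydrocarbons, had 21, 15 and 14 reads without and 8, 9 and 9 with knockdown at 48 h, and 28, 24 and 19 without and 40, 44 and 40 with knockdown at 240 h, so that kd lay below ctrl at 48 h and above it at 240 h. For Cyp4f13 the call was lost without 48 h ctrl replicate 2 or 3, 240 h ctrl replicate 1 or 2, or 240 h kd replicate 2 or 3, or with no minimum of reads, with differences of −0.80 to −0.88.

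Among neighbours of the cluster the difference was −0.70 for Ceacam1 and −1.05 for Mia. For Mia it was lost without 48 h ctrl replicate 2 or 240 h kd replicate 3 (both −0.94), or with no minimum of reads (−1.05). Among markers it was −0.62 for Esrrb, 1.58 for Krt8 and 1.26 for Tfap2c.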

How the results depend on the processing

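The other Cyp2b members could be tested only with no minimum of reads, where 0 were called. On log2(FPKM + 0.1) the added 0.1 fixed that count at 0, so only limma voom without a filter could have called any. Under the remaining alternatives the minimum fixed their count at 0. The differences of Cyp2b23 moved by less than the spread between replicates under 63 of 72 alternatives. The difference between the controls, which lay near 0, changed sign when the libraries were rescaled to an equal sum (0.03) or without 48 h ctrl replicate 3 (0.05) or 240 h ctrl replicate 3 (0.03), and no other difference of Cyp2b23 changed sign. With a pseudocount of 1 they were 0.36 at 72 h, 1.55 at 240 h and 1.498 between the effects at 240 h and 48 h, with a pseudocount of 0.01 they were 1.55, 3.88 and 3.58, and with limma voom 1.60, 3.94 and 3.62. With single libraries left out they were 0.13 to 0.33 at 48 h, 1.08 to 1.27 at 72 h, 3.22 to 3.39 at 240 h, 2.96 to 3.19 between the effects, and −0.14 to 0.05 between the controls.

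Over all genes, the counts called at 48 h, 72 h and 240 h were 188, 684 and 520 with a pseudocount of 1. With a mean of at least 0.5 FPKM as filter, 456 were called at 48 h and 1016 at 240 h, and with a pseudocount of 0.01 1271 and 2594. The interaction gave 343 with a pseudocount of 1, 664 with the FPKM filter and 1737 with voom, against 1123. Between the controls 15 to 226 genes were called under the scalings, pseudocounts and tests that gave any, against 67.

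Of list counts, 106 of 1104 moved by over 1.5 times, and of called list genes 73 of 852 lost the call and 0 reversed. Replicate numbers did not pair the samples: correlations of deviations of same-numbered libraries were −0.263 to 0.246, and no comparison had all 3 above 0.1. With the replicate block, the Cyp2b23 differences were 0.20, 1.18, 3.29, −0.04 and 3.09, and 657, 2193, 1636, 0 and 1086 genes were called at 48 h, 72 h, 240 h, between controls and in the interaction. With at most 9 reads of Cyp2b13 and 3 of Cyp2b19 in a library, depth limits what can be said of these genes.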
